A study of Mus musculus with 37 samples.

Results

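The 10 arrays described here are the mammary glands of sedentary mice fed ad libitum (AL), taken by their diet label alone, out of 37 arrays in the series. The animals were female C57BL/6 mice, 9 weeks old at the start and followed for 6 weeks, which ate ad libitum and had no running wheel. They are the control arm of a trial of calorie restriction and voluntary running, whose other arms are not used here. No animal carried a transgene or took a drug, per the labels. From each mouse the left and right thoracic glands, about 60 mg each, were pooled into 1 RNA sample, and each RNA was hybridised to 1 Affymetrix oligonucleotide array. Whole glands were used, so every value is a mixture over all cells of the gland and of whatever tissue came with it, and fewer cells of a type cannot be told apart from less RNA per cell.

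The mouse mammary gland of a virgin adult is a fat pad crossed by a sparse tree of ducts. Ducts have an inner luminal layer, marked by keratins of simple epithelia and by hormone-response factors, and an outer basal or myoepithelial layer, which contracts to eject milk. The thoracic pads lie on skeletal muscle close under the skin, near lymph nodes and near the brown fat of the shoulder region, and milk proteins are made in quantity only from pregnancy onward.

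The deposited signals were already scaled: the mean after trimming 2% of values at each end was 500.165 to 500.229 on every array. Among 22690 probe sets, 20380 named a single gene, which gave 12393 genes, each read from its brightest probe set. Levels are log2(signal + 16), and genes below the 25th percentile of the mean, a signal of 90.3, were left out of the tests of spread, which left 9295 genes. Pairs of arrays correlated at 0.901 to 0.971 across genes, which are not independent of each other. The ratio of the 3' to the 5' control probe sets for Gapdh, a sign of RNA degradation or short labelled RNA when high, was 2.74 in AL 1, 7.03 in AL 2 and 2.37 in AL 8, against 0.842 to 1.29 in the other 7. Other controls split the arrays less cleanly. The Actb ratio was 1.96 in AL 6 and 1.98 in AL 2. The Pcx ratio was 56.9 to 115 in AL 1, AL 2 and AL 8, 26.2 in AL 6, 16.2 in AL 4 and 3.98 to 5.94 elsewhere. Xist, the RNA that coats the silent X chromosome of female cells, had a signal of 236 in AL 10, against 3621 to 10060 on the other 9 arrays, and its 2 other probe sets were also lowest there, at 5.9 and 8.4. The Y-linked gene Eif2s3y was at 0.7 to 6.0 on all 10 arrays. The brightest probe set of Kdm5d, also Y-linked, was at 106 in AL 10 and 10.9 to 116 on the others, and that of Uty at 31.5 in AL 10 and 24.5 to 69.5 on the others. Each gene was also taken as its log2 difference from the mean of the other arrays. On that scale the median of 268 X-linked genes minus that of autosomal genes was -0.06 in AL 10, the lowest of a range up to 0.08. AL 9, where Xist was at 8126, was close to it at -0.05, so this value does not single out AL 10. Whether AL 10 is what its label says was not settled, and AL 10 is 1 of the 2 arrays of the last run of title numbers, AL 9 and AL 10.

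Fat, muscle and general cell functions shared the top of the ranking. The 20 genes with the highest mean included Aldoa, the muscle form of the glycolytic enzyme aldolase, at rank 1, Atp2a1, the calcium pump of fast muscle, at rank 2, Scd1, which desaturates stearate, at rank 3, and Car3, a carbonic anhydrase abundant in fat and muscle, at rank 4. Aldoa was counted in the housekeeping list, and Tpt1, Eef1a1, Fth1, Uqcrb and the mitochondrial gene ND5 were among the 20 too. Of the 100 brightest genes, 16 were among the 46 listed muscle genes on the array, 13 among the 78 fat genes, and 39 among 247 genes of general functions such as ribosomes and the respiratory chain. The stromal lists gave 1, the immune lists 1, and the 92 epithelial genes none, while 29 were in no list. The 100 brightest genes together held 12.8% to 20.9% of the summed signal of an array, with a median of 17.0%. The hundredth gene had a mean of 13.376 on the log2 scale and the next one 13.374, so the edge of this set is not a step in the data.

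These ranks are ranks of signal, since the brightness of a probe set also depends on its probes. In the 4956 genes with more than 1 probe set, the brightest exceeded the second by a median of 1.98-fold. When the mean over all probe sets of a gene was used instead, 61 of the 100 brightest genes were still in that set.

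**Figure D1:**
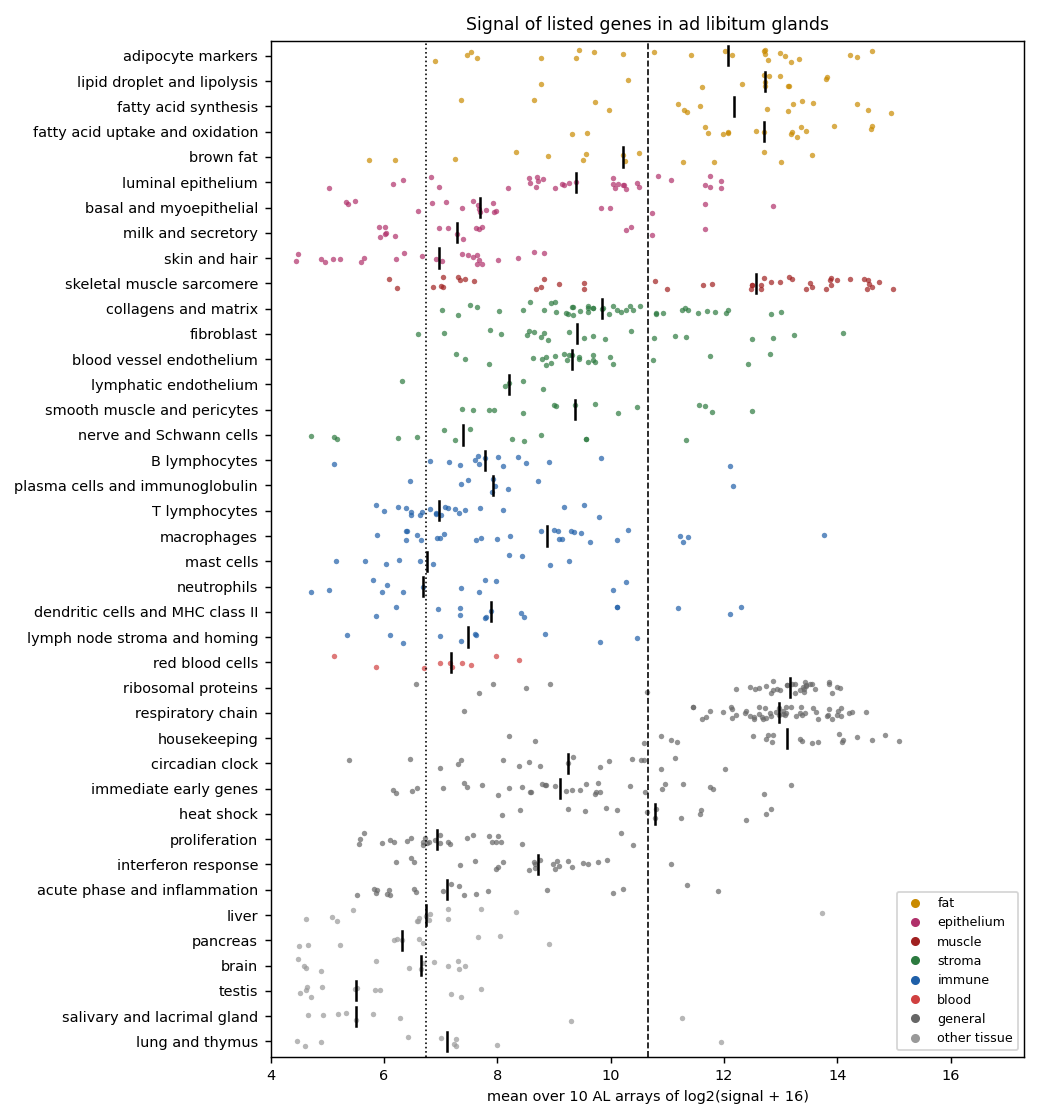
Mean log2(signal + 16) over the 10 AL arrays for each gene (points) of 40 lists, with the list's median as a black bar. The dotted line is the 25th percentile of all genes and the dashed line the start of the brightest 10%; the fat lists other than brown fat, and the muscle, ribosomal and respiratory chain lists, have medians to the right of the dashed line, and the epithelial, stromal and immune lists to its left.

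Fat genes were bright on every array. Of 24 adipocyte markers, 15 were in the brightest 10% of all genes, a class that holds 10.0% of the array by construction, and their median percentile was 97.0. Fabp4, the fatty acid carrier of adipocytes, ran from 16592 in AL 3 to 42756 in AL 6 with a median signal of 22520. Lpl, which frees fatty acids from circulating triglyceride, ran from 17053 to 43867 with a median of 23803. Adipoq, the gene of the hormone adiponectin, stood at rank 24 and ranged only from 13959 to 30960, with a median of 17769. All 3 were highest in AL 6 and lowest in AL 3, and none varied by more than 2.58-fold.

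The enzymes of fat synthesis and storage stood as high. Of 16 genes of fatty acid synthesis 12 were in the brightest 10%, led by Scd1 with a lowest signal of 19542, a median of 31740 and a highest of 54922. Fasn, the fatty acid synthase, had 16433 at the lowest, 22982 at the median and 41939 at the highest. Thrsp, a nuclear protein tied to lipogenesis, was at 38145 in AL 6 and between 14615 and 22440 elsewhere. Of 13 genes of lipid droplets and lipolysis 11 were in the brightest 10%, among them Dgat2, which makes the final bond of triglyceride, with a median signal of 14319, and Pnpla2, the lipase that starts its breakdown, with 15572. Fatty acid uptake and oxidation had 15 of 17 in that class.

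Some adipocyte genes varied widely, although the mean of their list per array had an SD of only 0.29 on the log2 scale. Lep, the satiety hormone leptin, had a median signal of 979 and was at 203 in AL 10, 204 in AL 3 and 270 in AL 9, against 402 to 1613 on the other 7 arrays. Nnat, an imprinted gene expressed in adipocytes, was at 85.4 in AL 10 and 125 in AL 9, against 708 to 4996 elsewhere. Sncg, a synuclein found in white adipocytes, was at 65.8 in AL 10 and 3002 in AL 4. Retnla, a resistin-like secreted protein which is in no list and was chosen after its values were seen, ran from 834 in AL 10 to 11802 in AL 5. These 4 genes share their low end in AL 10, and AL 9 was next to lowest in Nnat, Sncg and Retnla.

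Brown fat genes were present and formed the most variable fat list. Of 15 such genes on the array 5 were in the brightest 10%. Ucp1, the uncoupling protein that lets brown fat mitochondria make heat, ranked 160 of 12393. Its signals were 5031, 13425, 9645, 2110, 12470, 12114, 1211, 14062, 26030 and 15225 in AL 1 to AL 10, a 21.5-fold range with an SD of 1.38 on the log2 scale. AL 4 and AL 7 were the low arrays and AL 9 the high one. Dio2, which activates thyroid hormone, was lowest in AL 7 at 82.3 and highest in AL 9 at 1632, and Slc27a2, an acyl-CoA synthetase, was lowest in AL 4 at 175 and highest in AL 9 at 2247. Cidea, a lipid droplet protein of brown and beige fat, ran from 3585 in AL 4 to 15159 in AL 9. AL 9 was the highest array for 11 of the 13 tested brown fat genes, whereas 12.2% of all tested genes were highest there. Members such as Cox8b and Cox7a1, subunits of cytochrome oxidase, are also found in muscle, and AL 9 had the highest mean of the muscle list as well, so their part in this was not tested.

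Skeletal muscle stood as high as fat in genes of the contractile machinery. Of 46 listed genes 30 were in the brightest 10%, and their median percentile was 97.9. The leading members were those of fast fibres: Atp2a1 had a median signal of 33906, Acta1, the skeletal actin, 29048, Tnni2, the fast troponin I, 25289, Myh4, a fast myosin heavy chain, 24222, Myl1, a myosin light chain, 23753 and Pvalb, the calcium buffer parvalbumin, 19390. The 3 genes of slow fibres given here, the members with the largest SD in the list, had lower signals on their own probe sets. Other slow-fibre members are not described. The fast genes were picked by mean and the slow ones by SD, so the gap is not a comparison of fibre types. Myl2, the slow and cardiac regulatory light chain, had a median signal of 420 and a range of 115 to 1274. Myh7, the slow myosin heavy chain, had a median signal of 150 and a range of 26.8 to 602, and Tnnt1, the slow troponin T, a median of 137 and a range of 11.6 to 412. All 3 slow genes were highest in AL 9.

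The muscle genes moved together between arrays. AL 1 was the lowest array for 36 of 44 tested members, whereas 10.5% of all tested genes were lowest there. Atp2a1 was at 14617 in AL 1 against 26043 to 49973 elsewhere, and Acta1 was at 14752 in AL 1 against 20218 to 41166. Muscle genes summed to 1.95% of the signal of AL 1 and to 5.87% of AL 10, with a median of 4.07% over arrays. The fat genes summed to 4.31% to 6.42%, a narrower range. AL 1 is also an array with a Gapdh ratio above 2, and the part of RNA quality in its low muscle signal was not tested.

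Epithelial genes sat in the middle of the ranking, and the luminal list had a higher median percentile than the basal one. Among 33 luminal genes 7 were in the brightest 10%, with a median percentile of 73.6. Krt18, Krt19 and Krt8, keratins of simple epithelium, had median signals of 4417, 4912 and 3774. Epcam, an adhesion molecule of epithelial cells, had a median of 1443, and Foxa1, a partner of the oestrogen receptor, of 1723. Among the 20 basal genes 3 were in the brightest 10%, with a median percentile of 40.9. Acta2, a smooth muscle actin that is also in the smooth muscle list, was 1 of the 3, with a median signal of 3499. The keratins were dimmer, with Krt14 at a median of 291 and Krt5, its keratin partner, at 264. Both medians lie below the 326 of the liver gene Alb, a level that cannot be read as expression from signal alone. Levels of different genes carry their probes' brightness, so the gap between layers is not a ratio of cells.

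AL 9 had the least epithelial signal. It was lowest for 28 of 30 tested luminal genes, against 14.7% of all tested genes, and its list mean was 7.75 on the log2 scale against 9.14 to 10.10 on the other 9 arrays. Krt18 was at 963 in AL 9 and 3593 to 5976 elsewhere, and Krt19 at 749 and 3750 to 6055. Epcam had signals of 3158, 1557, 1329, 2060, 2101, 847, 1685, 448, 163 and 847 in AL 1 to AL 10. The basal genes followed in part: Krt14 was at 15.8 in AL 9 and 150 to 438 elsewhere, and 8 of 16 tested basal genes were lowest there. AL 1 had the highest luminal mean, together with the lowest muscle mean.

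Milk genes and hormone receptors were mostly dim. Of 17 milk and secretory genes, 2 were in the brightest 10%, and their median percentile was 33.5. Csn2, which encodes beta-casein, had a median signal of 118, and Wap, whey acidic protein, of 129, levels like that of Prm1, a sperm protamine that the gland should lack, at 127. Csn3, which encodes kappa-casein, was an exception with a median of 1782 and a lowest value of 248 in AL 9. Esr1 and Pgr, the receptors of oestrogen and progesterone, had median signals of 48.2 and 63.6 and fell below the filter. Of 24 skin and hair genes none was in the brightest 10%, and their median percentile was 28.4. Dsp, a desmosome protein shared by skin and gland, was lowest in AL 9 at 91.1 and highest in AL 1 at 970.

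Connective tissue and vessels were present at mid to high signal. Of 45 collagen and matrix genes 13 were in the brightest 10%, with a median percentile of 80.8. Gsn, the actin-severing protein gelsolin, which fibroblasts and other cells express, led the stroma lists at rank 26 with a median of 19541. Sparc, a matrix glycoprotein, had a median of 8014 and Dcn, the proteoglycan decorin, of 6984. Of 25 vessel genes 4 were in the brightest 10%, with a median percentile of 72.4. Among its brightest members were Cav1, which forms caveolae in endothelium and fat, with a median of 8088, and Aqp1, a water channel of capillaries. Aqp1 had a median of 3264 with a range of only 2479 to 5036.

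Fibrillar collagens differed between arrays. Col3a1 had signals of 2353, 3340, 2862, 8475, 10197, 9113, 3767, 4440, 1922 and 2923 in AL 1 to AL 10. Col1a2 had 9702 in AL 4 and 10222 in AL 5, against 2310 to 6124 on the other arrays. Fn1, fibronectin, reached 8130 in AL 5 and was 1144 in AL 8. AL 4 and AL 5 were the top pair for 20 of 45 matrix genes and 9 of 21 fibroblast genes, whereas 3.14% of all tested genes had that pair on top. The vessel list varied far less: its mean per array had an SD of 0.14 on the log2 scale, against 0.39 for the matrix list.

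AL 5 also stood apart in genes induced by interferon. Iigp1, an interferon-induced GTPase, was at 10724 in AL 5 against 1068 to 2930 elsewhere, Gbp2, a guanylate-binding protein, at 2769 against 215 to 650, and Igtp, another such GTPase, at 3750 against 493 to 1281. Of 21 tested interferon genes 16 were highest in AL 5, against 6.18% of all tested genes. AL 5 was the highest array for 9 of 22 macrophage genes and 8 of 16 basal genes too. Its Gapdh ratio was 0.886, within the range of the 7 low arrays.

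Immune genes gave the largest differences between arrays. Lymphocyte genes were close to the floor on 6 arrays, AL 1, AL 2, AL 4, AL 5, AL 6 and AL 7, and bright in AL 3, AL 9 and AL 10, with AL 8 between. Glycam1, a mucin of the high endothelial vessels of lymph nodes and also a milk protein, had signals of 6.0, 4.9, 3783, 6.0, 9.4, 14.9, 7.5, 1313, 8684 and 11374 in AL 1 to AL 10. Its SD of 4.02 on the log2 scale was the largest of the 9295 tested genes, with values near 0 at the low end. Cd79a, part of the B cell receptor, ran from 87.7 to 136.1 on the 6 low arrays, was 384 in AL 8, and was 2137, 2917 and 2872 in AL 3, AL 9 and AL 10. Cd3d, part of the T cell receptor complex, was at 1000, 1024 and 1005 in those 3 arrays, at 119 in AL 8 and at 7.2 to 61.5 elsewhere. Ltb, a lymphotoxin that organises lymphoid tissue, was at 1484, 2240 and 1657 in the 3 arrays, at 170 in AL 8 and at 5.0 to 17.6 elsewhere.

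The pattern ran through the lymphocyte lists. AL 3, AL 9 and AL 10 were the 3 highest arrays for all 14 tested B lymphocyte genes, 12 of 14 T lymphocyte genes and 9 of 13 genes of dendritic cells and MHC class II, whereas 7.67% of all tested genes had those 3 on top. The filter used the mean over all 10 arrays, so some members passed it through the arrays where they are high. Ltb and Cd3d, with median signals of 15.4 and 43.1 against a cut of 90.3, are such members. Of 22 T lymphocyte genes on the array 8 did not pass, so these counts do not test the pattern. The list means of B lymphocyte genes were 9.89, 10.23 and 10.07 in the 3 arrays, 8.54 in AL 8 and 6.89 to 7.11 elsewhere. Cxcl13, the chemokine that draws B cells into follicles, was at 806, 986 and 1111 in AL 3, AL 9 and AL 10 against 241 to 463 elsewhere. Whether lymph node tissue was dissected with these glands is not given in the sources used here, and its part was not tested. The arrays and the patterns by array were picked after the values had been seen.

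Of 28 macrophage genes 4 were in the brightest 10% and 6 in the dimmest 25% of all genes, with a median percentile of 64.1. Csf1r, the receptor of the macrophage growth factor, had a median of 2798 and a range of 1511 to 4269, and Cd74, the invariant chain of MHC class II, a median of 3820 and a range of 1842 to 12512. Lyz2, a lysozyme of macrophages and neutrophils, ran from 1057 in AL 6 to 6642 in AL 9. C1qa, a complement subunit made by macrophages, was at 94.2 in AL 1, 134 in AL 2 and 285 in AL 8, the arrays with Gapdh ratios above 2, against 469 to 1680 on the others. The brightest probe set of C1qb, another such subunit, had 722, 783 and 878 in AL 1, AL 2 and AL 8, with a median of 739. On its other probe sets these were not the 3 lowest arrays either, although 1 probe set was lowest in AL 8 at 253. Mast cell and neutrophil genes were dim, with median percentiles of 25.3 and 24.4, and Cpa3, the mast cell carboxypeptidase, had a median signal of 267 and its highest value of 710 in AL 5. Of 16 listed red blood cell genes 10 had a probe set naming them alone, and signal of probe sets shared between genes is not counted. Among the 10, Hba-a1, alpha-globin, had a median of 121 and Hbb-b2, a beta-globin, of 249.5.

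Lists of tissues that the gland should not hold were taken as a rough guide to the floor of the measurement. The median percentiles of the 6 lists ran from 10.0 for testis and for salivary and lacrimal gland, over 19.3 for pancreas and 23.9 for brain, to 30.8 for lung and thymus, with liver between the last 2. The medians of the neutrophil, mast cell, T lymphocyte, skin and hair, and proliferation lists lay within that range, so a median signal of these lists cannot be read as expression. Alb, albumin, had a median signal of 326, and a listed gene at that level cannot be read as expressed from its signal alone. Cyp2e1, a cytochrome P450 of the liver list, was an exception at rank 63 with a median of 14247, and Amy1, the salivary amylase, had 2525. In the last-run contrast given below, 2 of 7 liver genes and 2 of 2 salivary genes fell, against 4.62% of all tested genes. Amy1 and Alb were among them, with differences of -1.18 and -0.77. The Amy1 call was lost without AL 9 and the Alb call under 8 alternatives. The lists are therefore not a pure floor, and whether these genes are expressed in the gland was not tested. Of the 40 lists, 3 general ones had the highest medians, at percentile 98.9 for ribosomal proteins, 98.6 for the respiratory chain and 98.8 for housekeeping genes, and 51 of 52 respiratory chain genes were in the brightest 10%. Proliferation genes stood at percentile 27.9, with none of 28 in the brightest 10%.

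**Figure D2:**
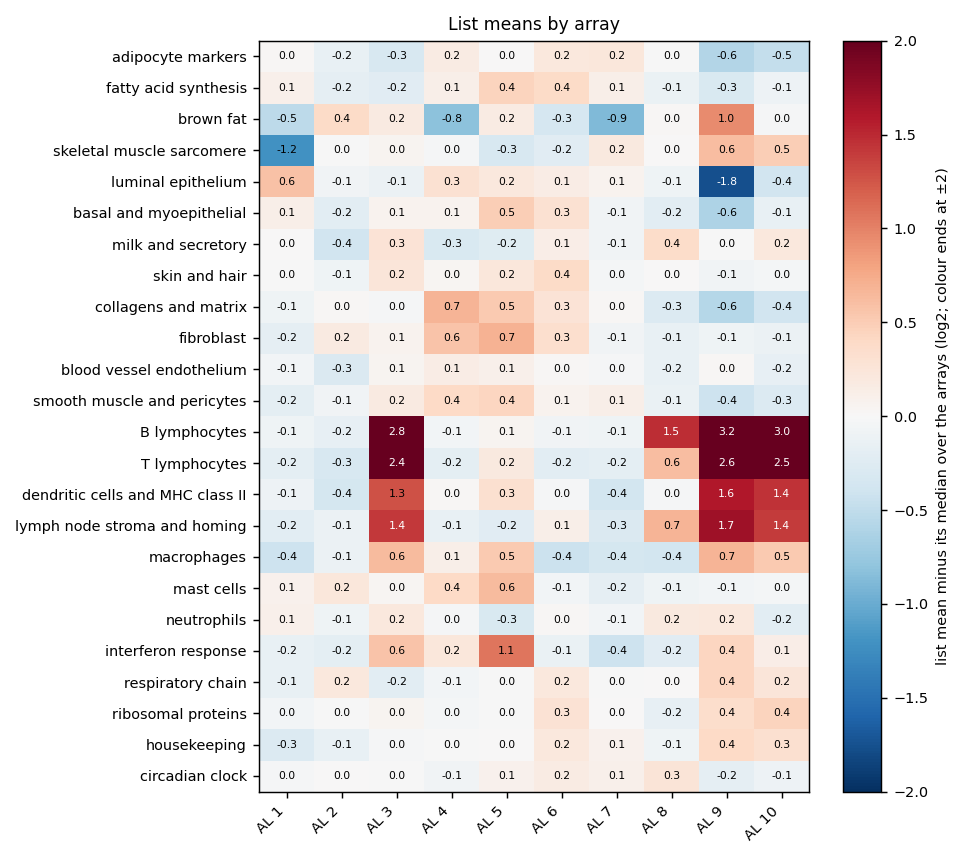
Mean log2 signal of 24 lists (rows) in each AL array (columns), as the difference from the list's median over the 10 arrays; colours end at ±2. B and T lymphocyte lists are high in AL 3, AL 9 and AL 10 and raised in AL 8, the luminal list is low in AL 9, the muscle list is low in AL 1, and the interferon list is high in AL 5.

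The sequences just upstream of 4 genes that stand for these compartments are given to show what lies at their starts: the adipocyte hormone Adipoq, the skeletal muscle actin Acta1, the brown fat gene Ucp1 and the most variable gene, Glycam1. They are the 100 bases before the start annotated by RefSeq on GRCm38.p6, on the gene's strand, 5' to 3', and capitals mark TATAAA, the core of the TATA box, or CANNTG, the E-box core bound by myogenic and other helix-loop-helix factors, on either strand. The windows are chr16:23146436-23146535 on the plus strand for Adipoq, chr8:123894776-123894875 on the minus strand for Acta1, chr8:83290248-83290347 on the plus strand for Ucp1 and chr15:103565082-103565181 on the minus strand for Glycam1.
Adipoq: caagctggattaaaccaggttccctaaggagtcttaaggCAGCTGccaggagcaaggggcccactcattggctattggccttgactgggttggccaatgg
Acta1: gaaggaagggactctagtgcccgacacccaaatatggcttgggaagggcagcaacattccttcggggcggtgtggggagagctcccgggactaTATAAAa
Ucp1: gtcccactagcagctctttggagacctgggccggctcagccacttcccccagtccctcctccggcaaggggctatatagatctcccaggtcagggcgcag
Glycam1: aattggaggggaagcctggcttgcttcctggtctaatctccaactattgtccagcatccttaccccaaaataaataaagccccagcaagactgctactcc
Adipoq had 1 CANNTG and Acta1 had 1 TATAAA, and the windows of Ucp1 and Glycam1 had neither. Over all 32851 such windows, 5.56% held TATAAA and 34.4% held CANNTG. A match is only a run of letters, and none of these windows was measured by the arrays.

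The typical gene varied little between arrays. The median SD of the 9295 tested genes was 0.336 on the log2 scale, and 220 genes, or 2.37%, had an SD above 1. The 100 most variable genes included 22 of the 118 immune genes, 6 epithelial, 6 fat and 2 muscle genes, none of the stroma, blood or general lists, and 65 in no list. AL 3, AL 9 and AL 10 were the top arrays for 62 of these 100 genes. Beside the genes above these were Coro1a, a coronin of white blood cells, with 37.5 in AL 2 and 4096 in AL 10, Ptprc, the pan-leukocyte phosphatase CD45, with 135 in AL 7 and 5111 in AL 9, and Ccl5, a T cell chemokine, with 141 in AL 7 and 3130 in AL 9. Without the 4 arrays with Glycam1 above 1000, a choice made after seeing the data, only 21 of the 100 remained among the 100 most variable, and 92 genes had an SD above 1.

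A further group was lowest in AL 9 and AL 10. It held 13 of the 100 most variable genes, near the 9.22% of all tested genes, so the pattern is little more frequent among them. The luminal gene Foxa1 and the fat gene Nnat were among the 13. Dmbt1, a secreted epithelial glycoprotein, was at 139 in AL 9 and 308 in AL 10, against 618 to 4685 elsewhere. Fads3, a desaturase family member, was at 93.4 in AL 9 and 346 in AL 10, against 884 to 3376 elsewhere.

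A smaller group was lowest in AL 1, AL 2 and AL 8, the arrays with high Gapdh ratios, with 9 of the 100 and 3.94% of all tested genes. Fastk, the Fas-activated serine/threonine kinase, was at 30.4 in AL 1, 31.3 in AL 2 and 344 in AL 8, against 475 to 952 on the other 7 arrays. Ldb1, a cofactor of LIM-domain factors, was at 102, 10.6 and 294 in those arrays against 342 to 919. Some other genes read low on 1 or 2 arrays on their brightest probe set. Actb, beta-actin, was at 3690 in AL 1 and 2252 in AL 2 against 9989 to 26188 elsewhere. Its other probe set was not low there, with 4098 in AL 1, 4148 in AL 2 and a median of 4161, and was lowest in AL 4 at 1385. Pfn1, profilin, was at 47.0 in AL 8 and 464 to 5245 elsewhere. Rpl41, a ribosomal protein with a very short transcript, was at 3966 in AL 6 and 3496 in AL 8 against 16757 to 30973. On its next brightest probe set AL 8 was again lowest at 3917, but AL 6 at 6707 was level with AL 3 at 6622 and AL 5 at 6580. Ndufa4 and Cox8a, subunits of the respiratory chain, were lowest in AL 8 at 1826 and 2860 against 7861 to 14360 and 9416 to 19003. The part of RNA quality in these low values was not tested.

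**Figure D3:**
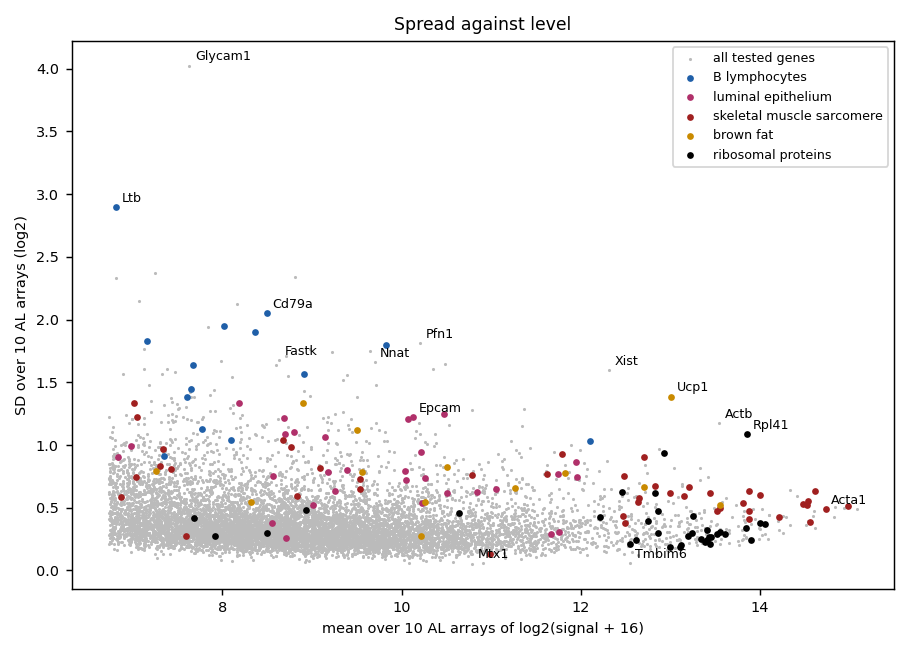
SD over the 10 AL arrays against mean log2(signal + 16) for the 9295 tested genes (grey), with 5 lists in colour. B lymphocyte genes lie far above the cloud, with Glycam1 at an SD of 4.02 on top, while Acta1 and most muscle genes combine a high mean with an SD below 1 and Mtx1 and Tmbim6 lie at the bottom.

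At the other end, some genes hardly moved. Among genes in the brightest 10%, Mtx1, a mitochondrial import protein, was the steadiest with signals of 1644 to 1836 and an SD of 0.05. Tmbim6, an endoplasmic reticulum protein that limits cell death, ran from 5600 to 6396 with an SD of 0.06, and Pxmp2, a peroxisomal channel, from 1798 to 2017. In these 10 arrays they varied by at most 1.14-fold, whereas the brightest probe set of Actb varied by 11.6-fold.

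**Figure D4:**
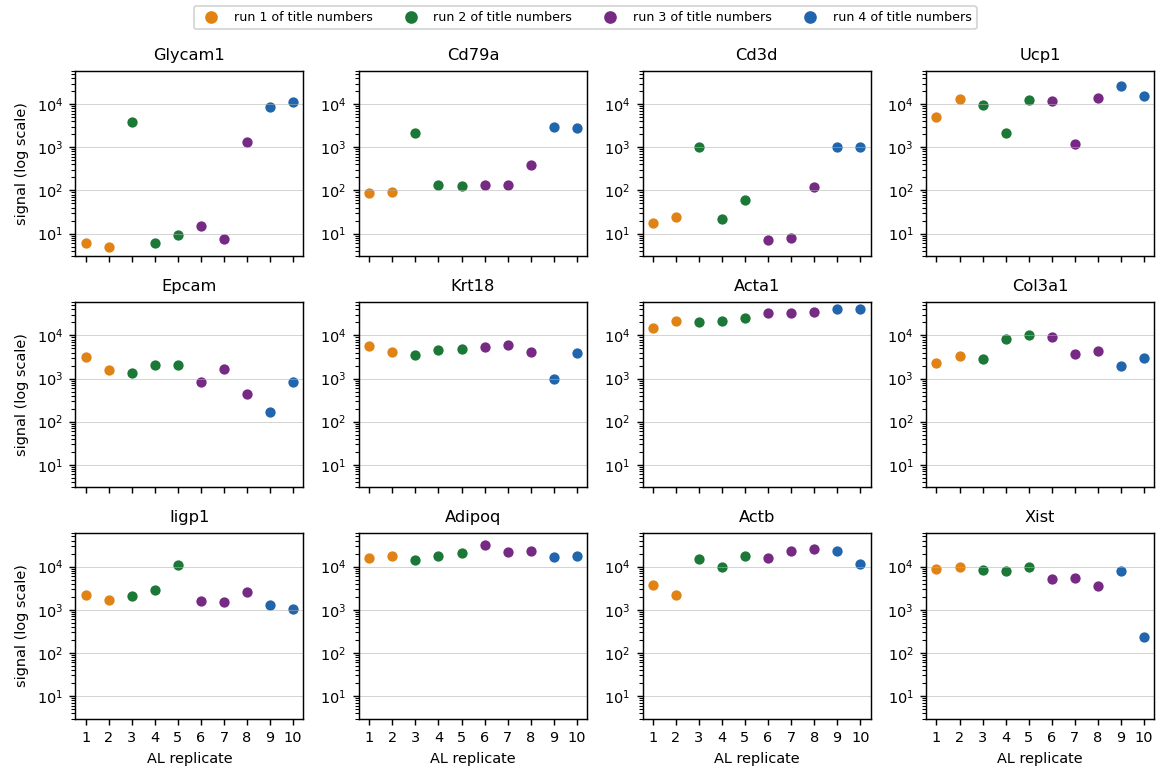
Signal on a log scale in each AL array for 12 genes, coloured by run of title numbers. Glycam1, Cd79a and Cd3d are high in AL 3, AL 9 and AL 10, Krt18 and Epcam are lowest in AL 9, Iigp1 is high in AL 5 alone, the brightest probe set of Actb is low in AL 1 and AL 2, and Xist is at 236 in AL 10.

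The numbers in the sample titles fall into 4 runs, AL 1 and AL 2, AL 3 to AL 5, AL 6 to AL 8, and AL 9 and AL 10, and the labels do not say what a run stands for. The last run was tested against the mean of the other 3 with limma over all 9295 genes, with 6 residual degrees of freedom. Of the tested genes 284 were higher in the last run, 3.06%, and 429 were lower, 4.62%, at an adjusted p under 0.05. A joint F test over the 4 runs called 542 genes, 5.83%. The number of calls depended on single arrays: 2 genes passed the last-run contrast without AL 9, 204 without AL 10, 307 without AL 1 and 396 without AL 5. Without AL 9 or AL 10 the run is a single array, assumed to vary like the other runs. Without AL 1, AL 2 and AL 8, the arrays with high Gapdh ratios, 182 genes passed.

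Lymphoid genes were the largest rises in the last run. Of 14 tested B lymphocyte genes 10 rose and none fell, with a median difference of 2.74 on the log2 scale over all 14, and of 14 T lymphocyte genes 8 rose, with a median of 2.07. The median difference over all genes was 0.02. Of 13 genes of dendritic cells and MHC class II 9 rose, whereas 3.06% of all tested genes did. Glycam1, Ltb and Cd3d averaged 6.02, 5.65 and 5.92 in the other runs, below the filter's cut of 6.73 on the log2 scale. They passed the filter through the last run, so the lists hold members selected by the pattern. Glycam1 differed by 7.26 ± 1.79 (SE, limma adjusted p = 0.034) and Cd79a by 3.87 ± 0.81 (adjusted p = 0.022). AL 3 of the second run shares this profile, so it did not separate the last run from the others: Glycam1 in AL 3 was at 3783. Without AL 9 the differences were 7.46 and 3.86, with adjusted p-values of 0.229 and 0.195. The Glycam1 call was lost when any of AL 1, AL 2, AL 5, AL 6, AL 9 and AL 10 was left out, and the Cd79a call without AL 9 or AL 10. Both were also lost without the 3 arrays with a high Gapdh ratio, and Glycam1 with no filter on low signals.

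Of 30 tested luminal genes 11 fell in the last run and none rose, with a median difference of -1.31, whereas 4.62% of all tested genes fell. AL 9 and AL 10 were not alike in this: the list mean was 7.75 in AL 9 and 9.14 in AL 10, against 9.41 in AL 3, the lowest of the other 8 arrays. Foxa1 averaged 8.39 in the last run and 11.04 in the other runs on the log2 scale, a difference of -2.64 ± 0.40 (SE, limma adjusted p = 0.011). Esrp1, a splicing factor of epithelial cells, differed by -2.64 ± 0.48 (adjusted p = 0.015), and Tspan1, an epithelial tetraspanin, by -2.82 ± 0.41 (adjusted p = 0.010). Each of the 3 missed the threshold when AL 9 was left out, with differences of -1.98, -1.49 and -2.71 in that order, and Esrp1 also without the 3 arrays with a high Gapdh ratio. Krt8 fell by 1.39 ± 0.35 (adjusted p = 0.036), a call that was lost when any of AL 1, AL 4, AL 5, AL 6 and AL 9 was left out, without the 3 arrays with a high Gapdh ratio, with no filter and with the mean of all probe sets. Its difference without AL 9 was -0.67 (adjusted p = 0.416).

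Fat and matrix genes gave single large falls. Nnat differed by -3.47 ± 0.45 (limma adjusted p = 0.0072) and Sncg by -2.97 ± 0.53 (adjusted p = 0.014), and 2 more of 24 adipocyte markers fell while 1 rose. Plagl1, an imprinted zinc finger gene, gave the smallest p, with a difference of -2.67 ± 0.25 (adjusted p = 0.0016). Of 45 matrix genes 8 fell, against 4.62% of all tested genes, among them Postn, periostin, with -1.82 ± 0.35 (adjusted p = 0.016). Without AL 9 the differences were -3.71, -3.68, -2.38 and -1.17 in that order, with adjusted p-values of 0.0576 to 0.225, and Sncg also missed the threshold without AL 10.

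Muscle and brown fat were mostly not called. Of 44 muscle genes 2 rose, with a median difference of 0.83, near the 3.06% of all tested genes that rose. Of 13 brown fat genes Cox7a1 alone passed, with a median of 1.00 for the list. Acta1 rose by 0.79 ± 0.20 (limma adjusted p = 0.037), but median centring or quantile normalization ended that call, as did leaving out AL 1, AL 4, AL 5, AL 6, AL 9 or AL 10. Cox7a1 rose by 1.00 ± 0.27 (adjusted p = 0.048) and was lost under 12 alternatives, median centring included. Of 17 clock genes Per2, Per3 and Dbp, which cycle over the day, were lower, against 4.62% of all tested genes. Per2 differed by -1.15 ± 0.28 (limma adjusted p = 0.034). The calls of all these clock genes were lost without AL 1, AL 9 or AL 10. Per3 differed by 0.21 when all its probe sets were averaged, the opposite direction. The time of day of collection is not given in the sources used here.

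**Figure D5:**
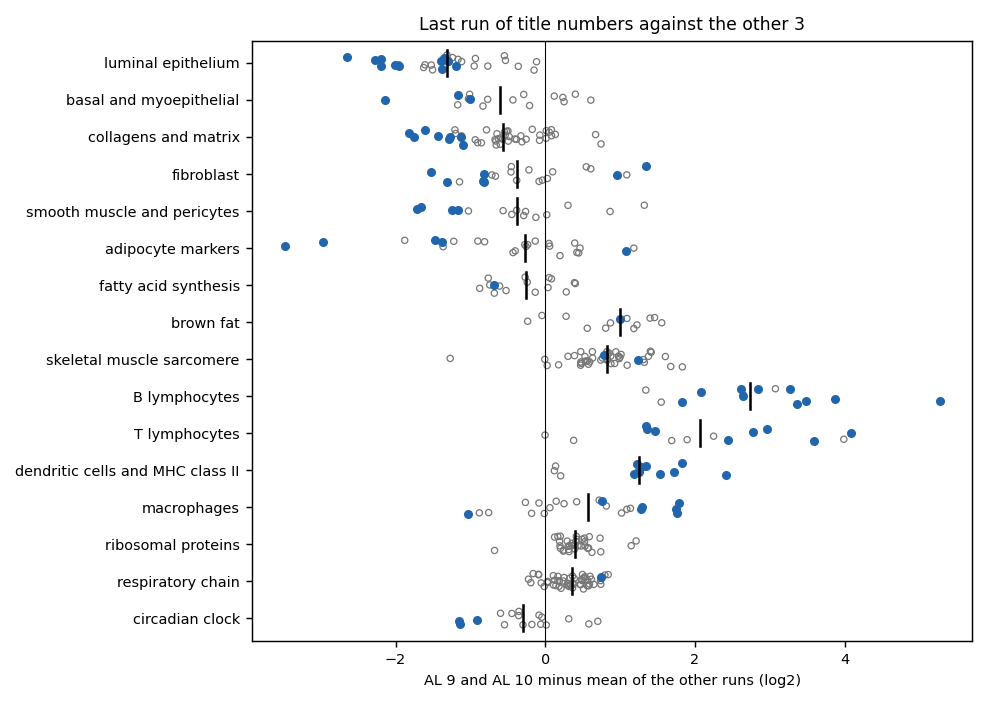
Difference of AL 9 and AL 10 from the mean of the other 3 runs (log2) for each tested gene of 16 lists, with the list's median as a black bar and genes at an adjusted p under 0.05 filled. Lymphocyte and MHC class II genes lie to the right, with medians of 2.74 and 2.07 for B and T lymphocytes, and luminal genes to the left at -1.31.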

How the data were processed

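Whole thoracic mammary glands of 10 AL mice were measured on Affymetrix arrays. The deposited values are signal intensity on a linear scale, scaled by the authors to a trimmed mean near 500.2. The submitters' processing notes name GCOS 1. Not given in the sources used here were its signal algorithm and detection calls. The table held 0 columns of other series. Signals were used as log2(signal + 16). Gene names came from the platform annotation (29 probe sets had no Entrez match); 691 probe sets naming several genes, 1555 naming none and 64 controls were left out. The brightest probe set over the AL arrays stood for a gene. Tests used limma 3.58.1 in R 4.3.3 with a variance trend and Benjamini-Hochberg adjustment; other values used Python 3.11.15, numpy 2.4.6 and pandas 2.3.3. The run test was tested on simulated data. The number of arrays limits the precision.

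Each array is 1 animal per the labels. Runs are blocks of 24 title numbers. Named genes were the brightest, most variable and steadiest genes, the leading members of each list and the largest differences of the run test; those outside the rule are marked. The members, lists and tests were chosen with earlier results of these data known. Genes without a probe set naming them alone were not analysed here. Alternatives were other pseudocounts, filters, probe set rules, normalizations, measures of spread and leaving out arrays.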

Additional observations from a re-analysis of the deposited data

Results flagged for a closer look

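Among 10 arrays, a value was picked out when its gap to the nearest other array as a share of the whole range of log2 values, exceeded Dixon's 95% critical value, which chance meets in about 1 of 20 groups. It picked out 20 of the 116 genes named (17.2%) and 2 of 40 lists, against 7.84% of all 9295 tested genes, and many of the named genes had been chosen for their spread.

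AL 9 was the low array for epithelial genes: Krt18 at 963, Krt19 at 749, Krt8 at 951 against 2537 to 6801, Krt14 at 15.8, Csn3 at 248 against 810 to 2507, and Esrp1 at 12.9 against 125 to 590. The mean of the luminal list was 7.75 in AL 9.

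AL 8 was the low array for Fth1, ferritin heavy chain, at 7154 against 16586 to 35487, Fau, a ribosomal fusion protein, at 1528 against 6019 to 16120, Cox8a at 2860, Ndufa4 at 1826 and Rps9, a ribosomal protein, at 1705 against 5078 to 8166.

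AL 5 was high for Iigp1 at 10724, Gbp2 at 2769 and Igtp at 3750, and low for Csn2 at 29.0 against 95.7 to 180 and Hba-a1 at 25.1 against 84.7 to 174.

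AL 1 was low for Atp2a1 at 14617 and for the mean of the muscle list at 10.21 against 11.11 to 12.05. AL 6 was high for Thrsp at 38145. AL 10 was low for Xist at 236 and for Krt79, a keratin of skin, at 215 against 280 to 365.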

How the results depend on the processing

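Of the 100 brightest genes 61 were shared with the mean of all probe sets and 72 with the second brightest one, and 90 to 100 under the other settings. The lists with a median percentile above 90 numbered 9, and 8 when probe sets were averaged. Of the 100 most variable genes 66 were shared with no filter, 43 with a filter at the 50th percentile, 46 with the median absolute deviation, 59 with the SD within runs and 21 without the 4 arrays with Glycam1 above 1000. The 220 genes with an SD above 1 became 107 with a pseudocount of 64, 103 with the filter at the 50th percentile, 139 with the median absolute deviation, 77 within runs and 92 without those 4 arrays. Leaving out each array in turn gave 159 to 248 such genes and kept 80 to 91 of the 100.

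The F test over runs called 277 genes with no filter, 259 without a variance trend and 12 without the 3 arrays with a high Gapdh ratio, and 52 to 800 when each array was left out in turn. The last-run contrast called 182 without those 3 arrays, 2 to 1021 when each array was left out and 595 to 813 under the other settings. Of the named last-run differences, 573 values under an alternative stayed past the threshold in the same direction, 170 missed it and 1 reversed: Per3 had a difference of 0.21 with the mean of all probe sets. The cause of these changes was not tested. Leaving out the 3 or the 4 arrays was chosen after seeing the data. No paired analysis was possible because all arrays are of 1 group and replicate numbers follow the accession order.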
